A study of Mus musculus with 6 samples.

Results

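Cytochrome P450 enzymes of the CYP1, CYP2 and CYP3 families are haem proteins of the endoplasmic reticulum that oxidize drugs, dietary compounds, pollutants, steroids and fatty acids. They take electrons from P450 oxidoreductase, and most of the drug-metabolizing members are made in hepatocytes, many of them in the pericentral zone around the central vein. Their genes are switched on by receptors that sense foreign compounds, chiefly AHR for the CYP1 family, CAR for CYP2B and part of CYP2C, and PXR for CYP3A, on top of liver factors such as HNF4A. Mice carry large clusters of recently duplicated Cyp2 and Cyp3 genes, several of them expressed differently in males and females.

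The genes described here are those whose symbol is Cyp followed by a family digit from 1 to 3, 1 subfamily letter and a number, on probe sets that name exactly 1 gene. That gave 51 probe sets of 42 genes in 14 subfamilies, out of 45037 probe sets and 20726 named genes on the array. By family, 3 of the genes were CYP1, 34 were CYP2 and 5 were CYP3. Another 4 probe sets name a member together with another gene and were kept apart. Of the 42 genes, 35 have 1 probe set and 7 have several, and where a single value per gene is given it comes from the probe set with the highest mean over all arrays.

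Liver RNA came from male C57BL/6J mice, 6 weeks old on arrival and acclimatized for 1 week, in 3 groups of 8 animals. CTL mice were fed chow and received every vehicle. NASH mice ate a diet with 60% of calories from fat from day 0 to 24 and were injected with CCl4, a hepatotoxin that CYP2E1 activates to a radical, at 0.1 ml/kg on days 14, 17, 21 and 24. They also received T0901317, an agonist of the lipid-sensing LXR receptors that is known to activate PXR as well, at 2.5 ml/kg on days 20 to 24. NASH+ISO mice had the same diet and injections, and the flavonol isorhamnetin at 50 mg/kg by mouth each day from day 11 to 24, where CTL and NASH mice had its vehicle. The NASH state is thus a model made by diet and 2 chemicals together, and their separate parts cannot be told apart.

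Each group was hybridized to 2 MG-430 PM arrays of Affymetrix, which the labels mark as technical repeats. Whether an array holds RNA of 1 mouse or of a pool was not stated in the sources used here. The number of mice behind each group difference is therefore unknown. Thus n = 2 arrays a group throughout, and the p-values measure spread between arrays, not between mice. Values are log2 signals after RMA, a procedure that removes background and puts all arrays on 1 scale, so a difference of 1 is a 2-fold change. No level is compared between genes, since each probe set binds with its own strength. The highest signal of 17 control probe sets with no mouse target, 2.90, marks the background and is called the background guide: 45 of the 51 probe sets had a mean above it and 6 did not, and the median probe set of the whole array lay at 3.46 to 3.50. Of the 42 genes, 5 had a mean at or under the guide (Cyp2c65, Cyp2d12, Cyp2d34, Cyp2j13 and Cyp3a16), and their fold changes have no reliable size. Replicate arrays lay close together, with a median gap over the 51 probe sets of 0.0393 between the CTL arrays, 0.0204 between the NASH arrays and 0.0279 between the NASH+ISO arrays. The 10 measured hepatocyte markers had a summed signal of 14.95 to 14.96 on the CTL arrays, 14.94 to 14.95 on the NASH arrays and 14.92 to 14.93 on the NASH+ISO arrays on the log2 scale. The brightest of these markers lay near the highest signal of any probe set (12.56 to 12.74), and saturation was not tested. In whole liver, fewer cells of a type and less RNA per cell cannot be told apart.

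Most of the P450 genes were lower in NASH than in CTL, and a minority was higher. In limma's test with Benjamini-Hochberg adjustment over all 45037 probe sets, at an adjusted p under 0.05, 28 of the 51 probe sets (54.9%) fell, 11 (21.6%) rose and 12 did not pass. Over all probe sets, 27.2% fell and 22.0% rose, so the share that rose was near that background and the share that fell was above it. At a change of at least 2-fold, 10 fell (19.6%) and 2 rose (3.92%), against 1.11% and 2.49% of all probe sets. The median difference of the 51 was -0.18 and that of all probe sets -0.04. Counted by gene, 25 of 42 fell, 10 rose and 7 did not pass, against 29.2% of all genes lower and 25.3% higher. At 2-fold 9 genes fell and 2 rose, against 1.25% and 2.88% of all genes.

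NASH+ISO differed from CTL in much the same direction. Of the 51 probe sets 30 (58.8%) were lower and 10 (19.6%) higher, against 21.5% and 21.2% of all probe sets, and the median was -0.26, against -0.01 for all. At 2-fold, 8 were lower and 1 higher, against 0.790% and 1.35% of all. Counted by gene, 26 of 42 were lower and 7 higher, against 23.9% and 24.1% of all genes, and at 2-fold 8 were lower and 1 higher, against 0.931% and 1.69%. Both comparisons use the same CTL arrays, so they are not independent of each other.

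**Figure D1:**
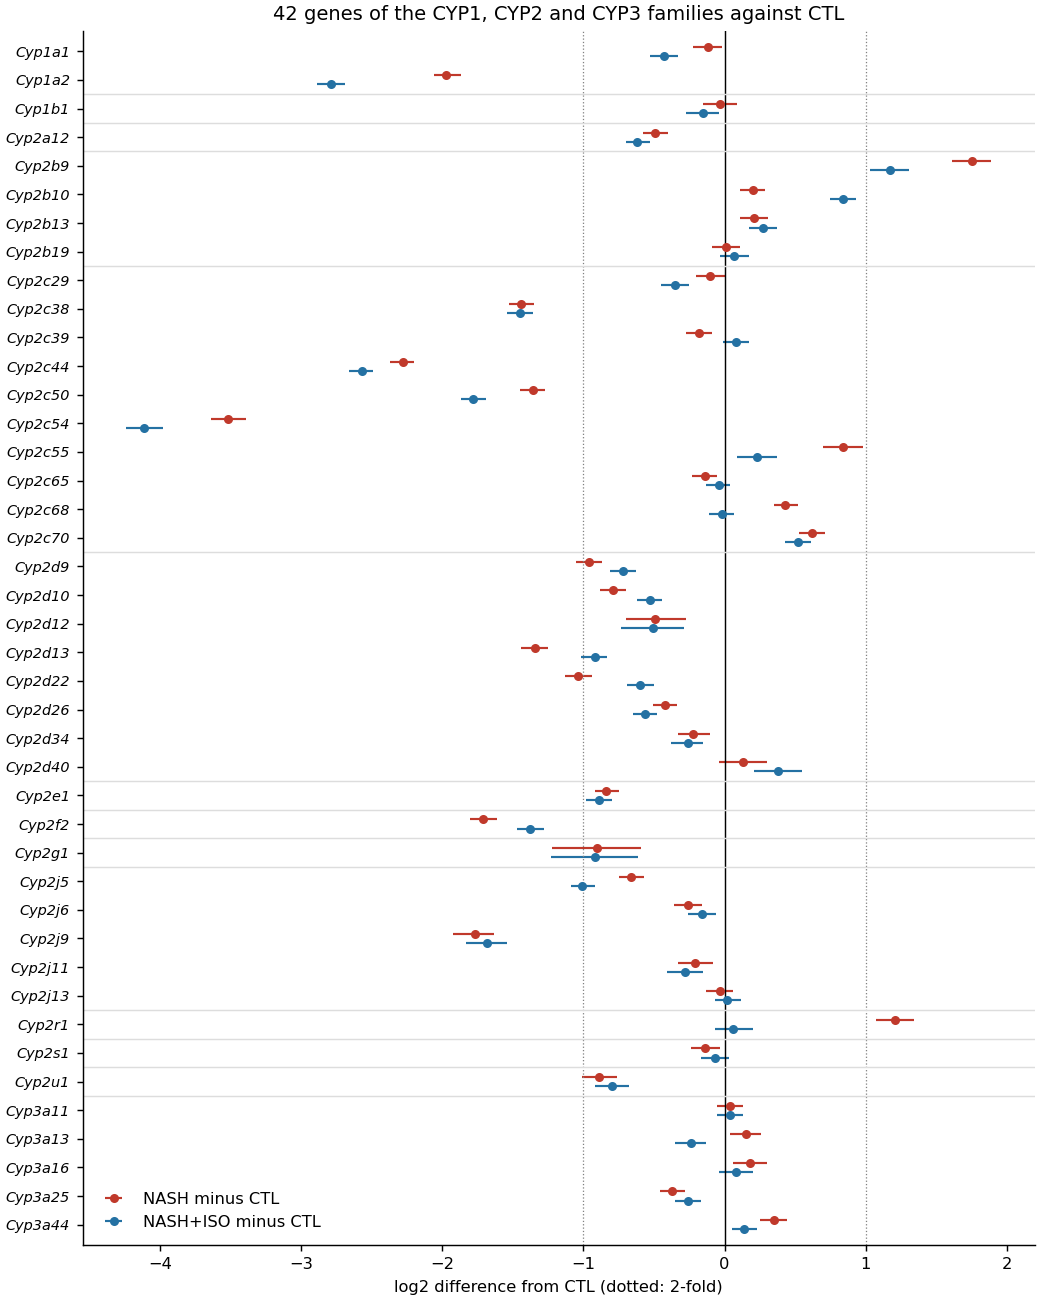
Log2 difference from CTL for each of the 42 genes, 1 probe set a gene, with 95% confidence intervals from limma (n = 2 arrays a group); red is NASH minus CTL, blue is NASH+ISO minus CTL, pale lines divide subfamilies and dotted lines mark 2-fold. The points reach from -3.52 (Cyp2c54) to 1.75 (Cyp2b9) in NASH, and the Cyp2d genes apart from Cyp2d40 lie left of zero in both colours.

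Between NASH+ISO and NASH the P450 genes had no common direction. Of the 51 probe sets, 16 (31.4%) were lower in NASH+ISO, 12 (23.5%) higher and 23 did not pass, against 17.7% and 19.5% of all probe sets, with a median of -0.02 against 0.02 for all. At 2-fold 1 was lower and 0 were higher in limma's test, against 0.533% and 0.238% of all. At an unadjusted p under 0.05 and any size, 34 of the 51 differed in either direction, 14 of them higher. Of all 45037 probe sets, 21155 differed in either direction by that rule. Counted by gene, 15 of 42 were lower and 8 higher, against 20.5% and 21.1% of all genes, and at 2-fold 1 was lower and 0 higher, against 0.618% and 0.280%. Of the 25 genes that fell in NASH, NASH+ISO was above NASH in 6 and below it in 7, while 12 did not pass. Of the 10 that rose, 6 were lower and 1 was higher in NASH+ISO than in NASH, and 3 did not pass. The NASH arrays enter both comparisons, so these counts are a description.

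**Figure D2:**
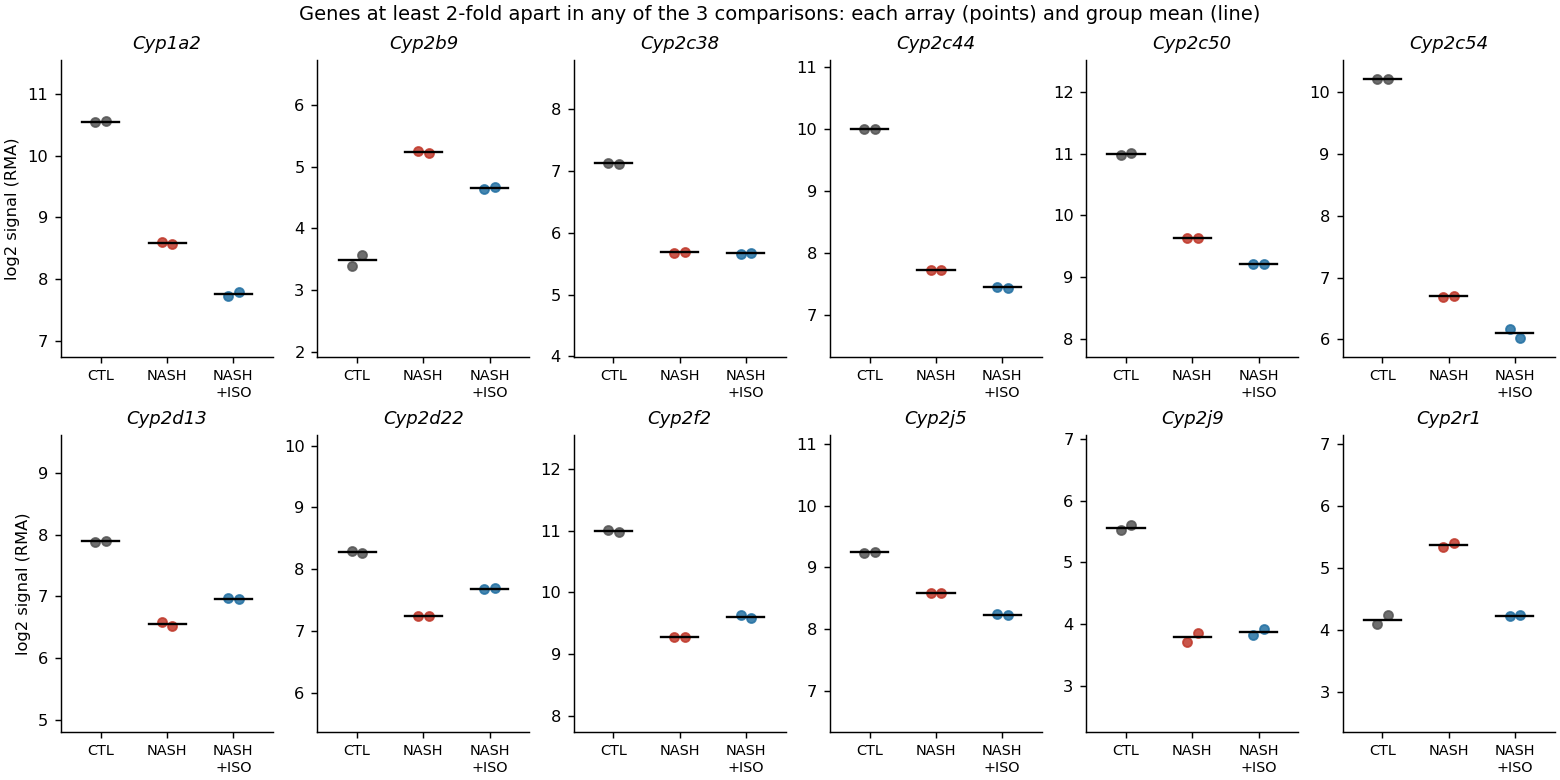
Log2 signal of the 12 genes that differed at least 2-fold in any of the 3 comparisons; each point is an array (grey CTL, red NASH, blue NASH+ISO), each line a group mean, and every panel spans the same range of log2 units. Cyp1a2 and Cyp2c54 step down from CTL through NASH to NASH+ISO, Cyp2d13, Cyp2d22 and Cyp2f2 dip in NASH, and Cyp2r1 is raised in NASH alone.

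CYP1A2 oxidizes caffeine and aromatic amines and is a textbook pericentral AHR target, and its gene fell in NASH and was lower again in NASH+ISO. The CTL arrays read 10.54 and 10.56, the NASH arrays 8.60 and 8.57, and the NASH+ISO arrays 7.73 and 7.79. The 3 groups were ordered CTL, NASH, NASH+ISO from high to low. NASH was 3.91-fold below CTL (log2 difference -1.97, SE 0.0411, adjusted p = 1.23e-07) and NASH+ISO 6.92-fold below it (-2.79, adjusted p = 4.64e-08). NASH+ISO was 1.77-fold below NASH (-0.82, SE 0.0411, adjusted p = 2.05e-05). Cyp1a1, its neighbour and the classical sensor gene of AHR activity, was low in all arrays, at 3.88 and 3.82 in CTL liver, 3.71 and 3.76 in NASH liver and 3.41 and 3.43 in NASH+ISO liver. It was lower in NASH+ISO than in either other group (-0.43 against CTL, adjusted p = 0.000191; -0.31 against NASH, adjusted p = 0.00125), and its difference of -0.12 between NASH and CTL did not pass (adjusted p = 0.0568, 95% interval -0.22 to -0.02). Cyp1b1, the mainly extrahepatic member that hydroxylates oestrogens, lay near the guide, with 3.40 and 3.29 on the CTL arrays, 3.34 and 3.30 on the NASH arrays and 3.17 and 3.22 on the NASH+ISO arrays. Its difference of -0.15 between NASH+ISO and CTL had an adjusted p of 0.0437 and did not pass with any array left out other than CTL array 2, and neither of its other 2 probe sets passed in any comparison.

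Cyp1a1 and Cyp1a2 lie on opposite strands of chromosome 9, and their start regions are shown because both genes are known AHR targets. Each stretch is 300 bases around the annotated start in RefSeq, build GRCm38.p6, chr9:57697363-57697662 on the plus strand for Cyp1a1 and chr9:57683606-57683905 on the minus strand for Cyp1a2. Capitals mark GCGTG, the core that AHR binds, in Cyp1a1, and TATAAA, the TATA box, in Cyp1a2.
Cyp1a1: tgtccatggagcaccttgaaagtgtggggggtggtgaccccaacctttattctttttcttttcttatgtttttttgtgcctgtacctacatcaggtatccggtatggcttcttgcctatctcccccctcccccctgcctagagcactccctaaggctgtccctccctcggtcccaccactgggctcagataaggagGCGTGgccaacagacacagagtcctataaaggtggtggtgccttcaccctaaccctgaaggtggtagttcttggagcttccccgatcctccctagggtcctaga
Cyp1a2: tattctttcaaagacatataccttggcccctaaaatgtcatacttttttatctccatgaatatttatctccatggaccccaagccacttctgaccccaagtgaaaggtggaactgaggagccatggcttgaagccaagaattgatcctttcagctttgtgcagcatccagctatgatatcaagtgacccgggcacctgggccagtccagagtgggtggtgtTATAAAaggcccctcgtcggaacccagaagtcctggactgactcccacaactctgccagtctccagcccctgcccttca
RefSeq gave such a stretch for 34 of the 42 genes. GCGTG, read on both strands, was in 7 of them (20.6%) and in 32.5% of 27025 mouse promoters of the same length. TATAAA was in 17 of the 34 (50%), Cyp1a1 included, against 14.2% of all promoters. These are matches of letters and say nothing of binding.

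The largest changes from CTL were in the CYP2C subfamily, whose enzymes hydroxylate steroids and drugs and make signalling epoxides from arachidonic acid. Of its 10 genes 6 fell, 3 rose and 1 did not pass in NASH, against 29.2% of all genes lower and 25.3% higher, and 4 of those that fell did so by at least 2-fold, against 1.25%. The share that rose was near the background, and the 6 include Cyp2c65, which was under the guide and did not pass with any CTL or NASH array left out. The probe sets of Cyp2c44 and Cyp2c65 carry a suffix that marks probes shared with related transcripts. How far each probe set tells related Cyp2c copies apart was not tested. Cyp2c54, an arachidonic acid epoxygenase, read 10.21 and 10.21 in CTL liver, 6.69 and 6.70 in NASH liver and 6.17 and 6.03 in NASH+ISO liver. That is 11.4-fold lower in NASH (log2 difference -3.52, SE 0.0538, adjusted p = 4.11e-08) and 17.3-fold lower in NASH+ISO (-4.11, adjusted p = 3.44e-08).

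Cyp2c44, listed in RefSeq as Cyp2c23 and also an epoxygenase, read 10.01 and 10.01 on the CTL arrays, 7.73 and 7.72 on the NASH arrays and 7.45 and 7.43 on the NASH+ISO arrays. It was 4.87-fold lower in NASH (-2.28, SE 0.0373, adjusted p = 5.32e-08) and 5.96-fold lower in NASH+ISO (-2.57, adjusted p = 4.64e-08). Cyp2c50, which also has epoxygenase activity, fell from 10.98 and 11.01 in CTL to 9.64 and 9.63 in NASH, and the NASH+ISO arrays both read 9.22. The difference was -1.36 in NASH (2.56-fold, SE 0.0378, adjusted p = 3.61e-07) and -1.78 in NASH+ISO (3.43-fold, adjusted p = 1.98e-07). These 3 genes shared 1 order of groups with Cyp1a2, with NASH+ISO below NASH by -0.59 for Cyp2c54 (adjusted p = 0.000213), -0.29 for Cyp2c44 (adjusted p = 0.00101) and -0.42 for Cyp2c50 (adjusted p = 0.000207). Cyp2c38 fell as well, from 7.13 and 7.12 in CTL to 5.68 and 5.69 in NASH, and read 5.66 and 5.68 in NASH+ISO. Its fall was 2.71-fold in NASH (-1.44, adjusted p = 2.79e-07), and NASH+ISO lay -0.01 from NASH (95% interval -0.10 to 0.07, adjusted p = 0.801).

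Cyp2c29, a CAR target that hydroxylates several drugs, read 11.32 and 11.33 in CTL liver, 11.26 and 11.20 in NASH liver and 11.00 and 10.95 in NASH+ISO liver. Its difference of -0.10 in NASH did not pass (95% interval -0.20 to 0.00, adjusted p = 0.0988), and it fell in NASH+ISO, by 0.35 on the log2 scale against CTL (adjusted p = 0.00058) and by 0.25 against NASH (adjusted p = 0.00366). The genes that rose in NASH were Cyp2c55, which is induced through CAR and PXR, Cyp2c68 and Cyp2c70, which makes the muricholic acids of mouse bile. Cyp2c55 rose 1.79-fold (0.84, SE 0.0588, adjusted p = 2.39e-05), Cyp2c70 1.54-fold (0.62, SE 0.0388, adjusted p = 1.38e-05) and Cyp2c68 1.35-fold (0.43, SE 0.0376, adjusted p = 7.32e-05). In NASH+ISO, Cyp2c55 and Cyp2c68 were lower than in NASH (-0.61, adjusted p = 0.000278, and -0.45, adjusted p = 0.000145), while Cyp2c70 kept a difference of 0.52 from CTL (adjusted p = 4.92e-05). Cyp2c39 was slightly lower in NASH (-0.18, adjusted p = 0.00592), and was the single Cyp2c gene that was higher in NASH+ISO than in NASH (0.26, adjusted p = 0.00161).

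Genes that lie next to each other could move together or in opposite directions. All Cyp2c genes are on chromosome 19, and in the gene order of RefSeq GRCm38.p6 Cyp2c54 is followed by Cyp2c50 and then Cyp2c70, with no annotated Cyp2c gene between them. Cyp2c54 and Cyp2c50 fell at least 2-fold and Cyp2c70 rose. Cyp2c38, which fell, and Cyp2c68, which rose in NASH, are separated by 1 Cyp2c gene. The probe set that names both Cyp2c37, the neighbour on the other side of Cyp2c54, and a second locus fell from 10.02 and 10.07 in CTL to 7.07 and 7.08 in NASH and read 6.79 and 6.80 in NASH+ISO.

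**Figure D3:**
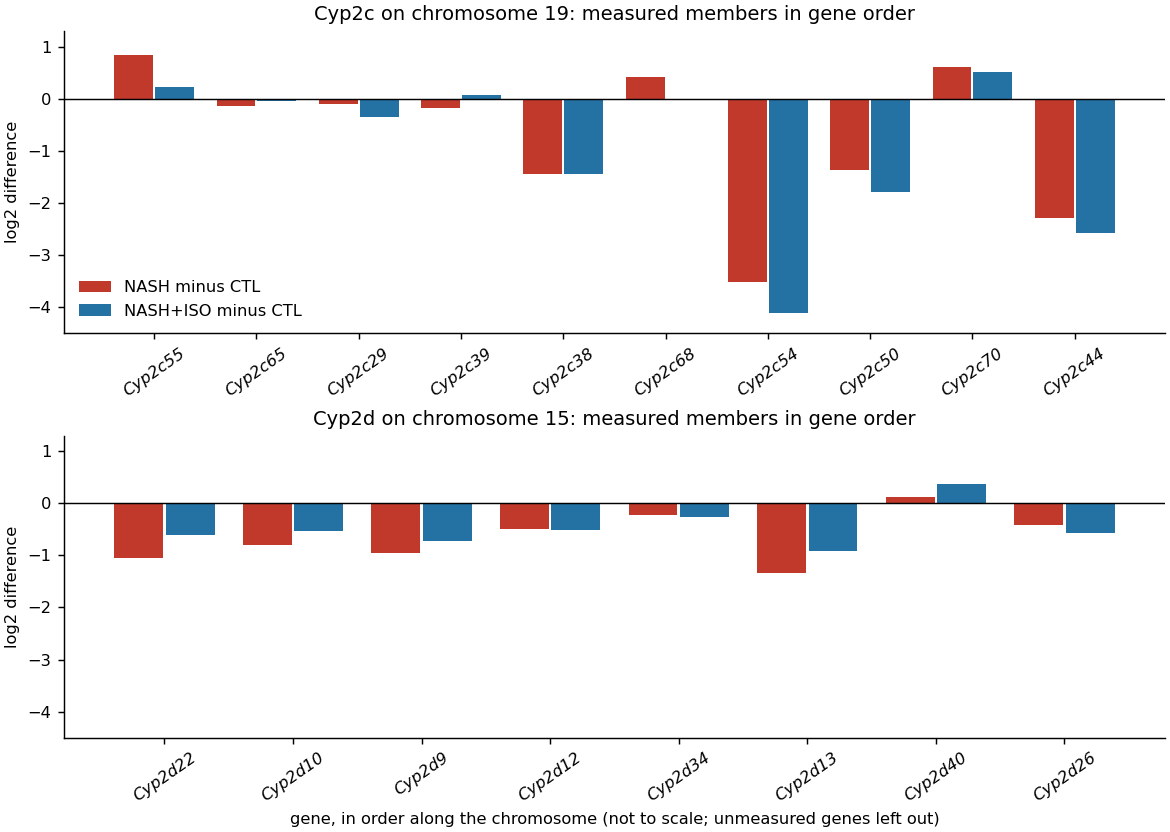
Log2 difference from CTL (vertical axis) of the measured Cyp2c genes on chromosome 19 and Cyp2d genes on chromosome 15, drawn in gene order and not to scale; red bars are NASH, blue bars NASH+ISO, each the mean of 2 arrays minus the mean of 2 CTL arrays. In the Cyp2c cluster bars from -4.11 to 0.84 stand side by side, while all Cyp2d bars but those of Cyp2d40 point down and lie between -1.34 and -0.22.

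The start regions of Cyp2c50 and Cyp2c70, neighbours of opposite direction, are shown for that contrast. RefSeq places them in GRCm38.p6 at chr19:40089429-40089728 on the plus strand and chr19:40187237-40187536 on the minus strand. Capitals mark CAAAGTCCA, a strong HNF4A binding sequence, whose exact letters are found in Cyp2c70 and not in Cyp2c50. The Cyp2c50 stretch holds a near match, caaagtgca.
Cyp2c50: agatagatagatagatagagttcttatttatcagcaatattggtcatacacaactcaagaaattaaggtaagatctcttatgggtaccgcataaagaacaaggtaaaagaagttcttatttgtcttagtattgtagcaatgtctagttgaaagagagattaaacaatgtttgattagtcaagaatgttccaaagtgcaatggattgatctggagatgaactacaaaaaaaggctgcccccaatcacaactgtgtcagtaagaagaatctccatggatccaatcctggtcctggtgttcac
Cyp2c70: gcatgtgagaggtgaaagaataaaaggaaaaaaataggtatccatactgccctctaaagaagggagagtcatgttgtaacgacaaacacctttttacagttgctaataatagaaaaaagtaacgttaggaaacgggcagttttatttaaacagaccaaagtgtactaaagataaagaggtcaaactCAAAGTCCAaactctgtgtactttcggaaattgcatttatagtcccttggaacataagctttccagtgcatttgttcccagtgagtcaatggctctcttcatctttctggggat
Over the aligned bases the Cyp2c50 stretch was 62.6% identical to that of Cyp2c70, 70.4% to that of Cyp2c29 and 89.5% to that of Cyp2c37. Gap positions, 70, 46 and 10 in that order, were left out. By the same measure the stretches of Cyp1a1 and Cyp1a2 were 61.1% identical, with 96 gap positions. CAAAGTCCA, on either strand, occurred in 5 of the 34 stretches (14.7%; Cyp2c65, Cyp2c68, Cyp2c70, Cyp3a11 and Cyp3a16) and in 0.477% of all mouse promoters. In NASH, Cyp2c68 and Cyp2c70 rose, Cyp3a11 did not pass, and Cyp2c65 and Cyp3a16 were not above the background guide. These too are matches of letters that say nothing of binding, and their part in the directions was not tested. TTCNNNGAA, the spacing that STAT factors bind, was in 1 of the 34 stretches, that of Cyp2j11 (2.94%, against 8.47% of all).

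The CYP2D subfamily, relatives of human CYP2D6, was mostly lower in NASH and stood partly higher in NASH+ISO. Of its 8 genes 7 fell in NASH, against 29.2% of all genes, and the remaining gene, Cyp2d40, differed by 0.13 and did not pass (adjusted p = 0.167). The 7 include Cyp2d12 and Cyp2d34, whose means were not above the background guide, and the call for Cyp2d34 (-0.22) did not pass without NASH array 1 (adjusted p = 0.0593). Between NASH+ISO and NASH, 5 were higher, 1 was lower and 2 did not pass, against 21.1% of all genes higher and 20.5% lower. Cyp2d9, a male-biased testosterone hydroxylase, read 11.47 and 11.44 on the CTL arrays, 10.50 and 10.49 on the NASH arrays and 10.74 and 10.73 on the NASH+ISO arrays. It fell 1.94-fold in NASH (-0.96, SE 0.0379, adjusted p = 1.6e-06) and was 1.18-fold higher in NASH+ISO than in NASH (0.24, adjusted p = 0.00259). Cyp2d22 read 8.30 and 8.26 in CTL liver, 7.25 and 7.24 in NASH liver and 7.68 and 7.69 in NASH+ISO liver. It fell 2.05-fold in NASH (-1.04, adjusted p = 1.31e-06) and was 1.36-fold higher in NASH+ISO than in NASH (0.44, adjusted p = 0.000198), and its second probe set gave -0.77 and 0.44. Cyp2d13, which RefSeq lists as a transcribed pseudogene, read 7.88 and 7.90 on the CTL arrays, 6.58 and 6.52 on the NASH arrays and 6.97 and 6.96 on the NASH+ISO arrays. It fell 2.54-fold in NASH (-1.34, adjusted p = 5.1e-07) and was 1.34-fold higher in NASH+ISO than in NASH (0.42, adjusted p = 0.000295), with -1.22 and 0.45 on its second probe set. In these 3 genes the NASH+ISO arrays lay between NASH and CTL.

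Cyp2d10 followed the same course (-0.79 in NASH, adjusted p = 3.51e-06; 0.26 between NASH+ISO and NASH, adjusted p = 0.0016). Cyp2d26 fell in NASH (-0.42, adjusted p = 7.69e-05) and was lower still in NASH+ISO (-0.14 against NASH, adjusted p = 0.0221), a call that did not pass with any NASH or NASH+ISO array left out. The same holds for Cyp2d40 as the fifth gene that was higher in NASH+ISO than in NASH (0.24, adjusted p = 0.0335). Near-identical Cyp2d copies can share probes, and how far each probe set tells them apart was not tested.

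The CYP2B genes, the classical phenobarbital-inducible and CAR-driven group, rose rather than fell. Of 4 genes 3 rose in NASH and 3 in NASH+ISO, against 25.3% and 24.1% of all genes higher. Cyp2b19, a gene of skin, passed in neither comparison. Cyp2b9, a gene of female liver that is low in males, read 3.40 and 3.57 in CTL liver, 5.25 and 5.22 in NASH liver and 4.64 and 4.67 in NASH+ISO liver. It was 3.36-fold higher in NASH (1.75, SE 0.0583, adjusted p = 7.68e-07), 2.25-fold higher in NASH+ISO (1.17, adjusted p = 7.2e-06), and came down from NASH to NASH+ISO (-0.58, adjusted p = 0.000339). Cyp2b10, the standard readout of CAR, went the other way between these groups, with 4.47 and 4.45 on the CTL arrays, 4.66 and 4.65 on the NASH arrays and 5.31 and 5.29 on the NASH+ISO arrays. It rose 1.15-fold in NASH (0.20, adjusted p = 0.00413), a rise that neither of its other 2 probe sets passed (-0.07 and 0.10), and was 1.56-fold higher in NASH+ISO than in NASH (0.65, SE 0.0377, adjusted p = 3.67e-05). The other 2 probe sets were also higher in NASH+ISO than in NASH, by 0.35 (adjusted p = 0.0198) and 0.90 (adjusted p = 1.91e-05). The Cyp2b10 probe set used here and 1 of the others carry a suffix that marks probes shared with related transcripts, and their part was not tested. Cyp2b13 was higher by 0.21 in NASH (adjusted p = 0.00566) and by 0.27 in NASH+ISO (adjusted p = 0.00218).

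All 5 measured genes of a list of 8 female-biased P450 genes (Cyp2b9, Cyp2b10, Cyp2b13, Cyp3a16 and Cyp3a44) were higher in NASH than in CTL. Their median was 0.21, and 25.3% of all genes were higher. The list was chosen with earlier results of these data known. A probe set naming Cyp3a41a and Cyp3a41b, outside the list, differed by 0.16 in NASH and did not pass (adjusted p = 0.0708). Cyp3a16 lay under the background guide in every group, and its call did not pass without CTL array 2 (adjusted p = 0.104) or without NASH array 2 (adjusted p = 0.115). The call for Cyp2b10 was lost with averaged probe sets (adjusted p = 0.216) and with the workbook values (adjusted p = 0.118), and that for Cyp2b13 with the workbook values (adjusted p = 0.0618), a second deposited set of log2 values. Cyp2a4, a further gene of the list, is read only on a probe set shared with Cyp2a5, which fell by 1.23 on the log2 scale. In NASH+ISO 4 of the 5 were higher than in CTL, with a median of 0.27, against 24.1% of all genes. The call for Cyp3a44 there (0.14) did not pass without CTL array 2 (adjusted p = 0.102) or without either NASH+ISO array (adjusted p = 0.0849 and 0.0684). Against NASH, 1 of the 5 was higher, 2 were lower and 2 did not pass.

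Several subfamilies with 1 measured gene fell too, pericentral Cyp2e1 and periportal Cyp2f2 among them. Cyp2e1, the pericentral enzyme that oxidizes ethanol, acetaminophen and CCl4, read 11.88 and 11.89 in CTL liver, 11.05 and 11.05 in NASH liver and 11.00 and 10.99 in NASH+ISO liver. It fell 1.79-fold in NASH (-0.84, SE 0.0371, adjusted p = 2.65e-06) and 1.85-fold in NASH+ISO (-0.89, adjusted p = 3.34e-06), and NASH+ISO differed from NASH by -0.05 (95% interval -0.14 to 0.04, adjusted p = 0.319). Cyp2f2, a periportal gene known for activating naphthalene, read 11.01 and 10.97 on the CTL arrays, 9.28 and 9.28 on the NASH arrays and 9.63 and 9.59 on the NASH+ISO arrays. It fell 3.27-fold in NASH (-1.71, SE 0.0397, adjusted p = 1.78e-07) and was 1.26-fold higher in NASH+ISO than in NASH (0.33, adjusted p = 0.000741). Among 6 measured pericentral genes (Cyp1a2, Cyp2c29, Cyp2c50, Cyp2c54, Cyp2e1 and Cyp3a11), 4 fell in NASH and 5 in NASH+ISO, and NASH+ISO was below NASH in 4. The shares of all genes that were lower in these comparisons were 29.2%, 23.9% and 20.5%. Cyp2f2 was the single periportal gene measured, and its contrast with the pericentral genes was not tested. Cyp2a12, a steroid hydroxylase, read 10.28 and 10.30 on the CTL arrays, 9.80 on both NASH arrays and 9.67 and 9.68 on the NASH+ISO arrays, and fell in both comparisons (-0.49, adjusted p = 3.64e-05, and -0.62, adjusted p = 1.76e-05). Its difference of -0.12 between NASH+ISO and NASH (adjusted p = 0.0362) did not pass with any array of those groups left out. Cyp2g1, an olfactory gene, read 3.76 and 4.19 in CTL liver, 3.16 and 2.98 in NASH liver and 3.03 and 3.07 in NASH+ISO liver, which is -0.90 (SE 0.132, adjusted p = 0.0011) and -0.92 (adjusted p = 0.00124) near the background guide.

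Of the 5 CYP2J genes, which like CYP2C members form epoxides from arachidonic acid, Cyp2j5, Cyp2j9 and Cyp2j11 fell in NASH, the probe sets of Cyp2j6 disagreed and Cyp2j13 was under the guide. Cyp2j9 read 5.53 and 5.60 on the CTL arrays, 3.72 and 3.86 on the NASH arrays and 3.83 and 3.93 on the NASH+ISO arrays. It fell 3.42-fold in NASH (-1.77, SE 0.0599, adjusted p = 8.05e-07) and 3.21-fold in NASH+ISO (-1.68, adjusted p = 1.64e-06), and the NASH and NASH+ISO arrays overlapped. Cyp2j5 read 9.24 and 9.25 in CTL liver, 8.59 and 8.58 in NASH liver and 8.24 and 8.23 in NASH+ISO liver. It fell 1.58-fold in NASH (-0.66, SE 0.0373, adjusted p = 8.44e-06) and 2.01-fold in NASH+ISO (-1.01, adjusted p = 1.97e-06), and its second probe set gave -0.40 and -0.52. Cyp2j11 fell by 0.21 in NASH (adjusted p = 0.0164), which did not pass without CTL array 2 or without NASH array 2. Of the 2 Cyp2j6 probe sets the brighter, which stands for the gene in the counts over 42 genes, fell in NASH (-0.26, adjusted p = 0.00209) and the dimmer rose (0.48, adjusted p = 0.000123), so no direction is given for the gene.

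The remaining single-gene subfamilies have narrower roles. Cyp2r1, a vitamin D 25-hydroxylase, read 4.09 and 4.24 on the CTL arrays, 5.34 and 5.41 on the NASH arrays and 4.22 and 4.24 on the NASH+ISO arrays. It rose 2.31-fold in NASH (1.21, SE 0.0569, adjusted p = 3.55e-06) and was 2.2-fold lower in NASH+ISO than in NASH (-1.14, SE 0.0569, adjusted p = 2.06e-05), the only P450 gene of the 42 with a change of 2-fold between those groups. Its NASH+ISO arrays lay at the CTL level (difference 0.06, 95% interval -0.07 to 0.20, adjusted p = 0.398). Cyp2u1, which hydroxylates long-chain fatty acids, read 4.31 and 4.18 in CTL liver, 3.36 and 3.35 in NASH liver and 3.44 and 3.45 in NASH+ISO liver, a fall of 0.89 on the log2 scale in NASH (adjusted p = 1e-05) that its dimmer probe set, at -0.12, did not pass (adjusted p = 0.176). Cyp2s1, a member of epithelia outside the liver, read 4.12 and 4.05 on the CTL arrays, 3.96 and 3.94 on the NASH arrays and 4.04 and 3.99 on the NASH+ISO arrays. Its difference of -0.14 in NASH had an adjusted p of 0.0347 and did not pass without CTL array 1 or without either NASH array.

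The CYP3A genes, which carry the bulk of drug oxidation, had the narrowest range of differences from CTL among subfamilies of 4 or more genes, from -0.37 to 0.35 in NASH. Cyp3a11, the PXR target that corresponds to human CYP3A4, read 12.31 and 12.32 in CTL liver, 12.35 and 12.35 in NASH liver and 12.34 and 12.36 in NASH+ISO liver. The differences from CTL were 0.04 in NASH (95% interval -0.05 to 0.13, adjusted p = 0.416) and 0.04 in NASH+ISO (-0.05 to 0.13, adjusted p = 0.454). The highest signals of any probe set were 12.56 to 12.74 on these arrays, so Cyp3a11 lay close to the top of the scale, and saturation was not tested. A dimmer probe set that names Cyp3a11 together with 2 other loci read 7.02 and 7.11 on the CTL arrays, 7.90 and 7.88 on the NASH arrays and 7.54 and 7.56 on the NASH+ISO arrays. Cyp3a25 fell in NASH (-0.37, adjusted p = 0.000173) and in NASH+ISO (-0.26, adjusted p = 0.00131). Cyp3a44, a female-biased gene, rose in NASH (0.35, adjusted p = 0.000294). Cyp3a13 was higher in NASH (0.15, adjusted p = 0.0279), which did not pass without CTL array 1 or without either NASH array, and lower in NASH+ISO than in CTL (-0.24, adjusted p = 0.00449) or NASH (-0.39, adjusted p = 0.000604).

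**Figure D4:**
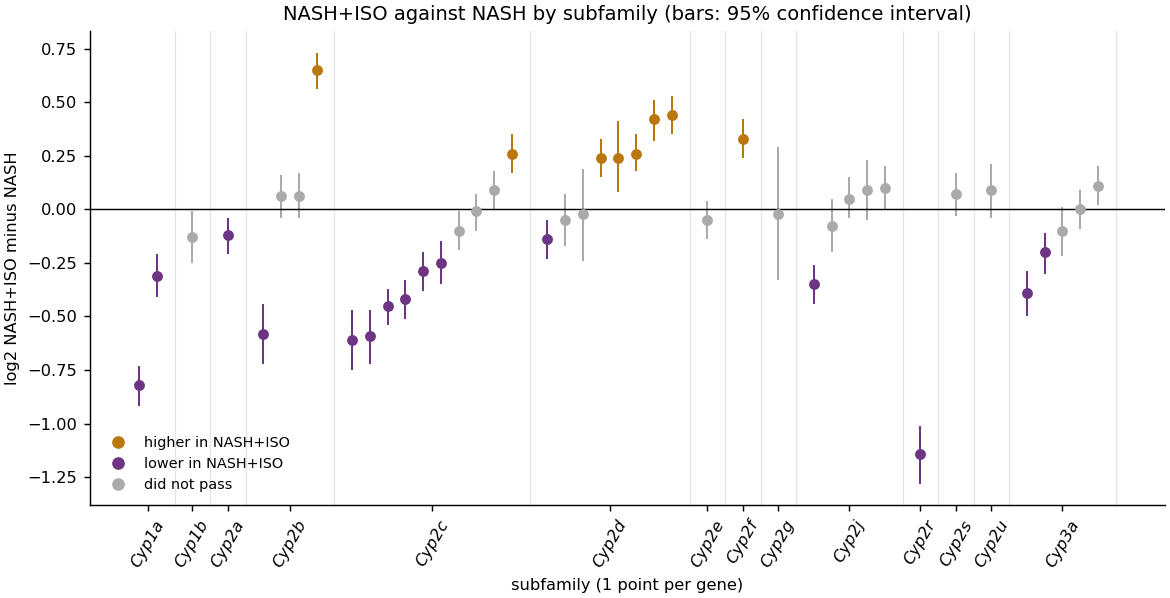
Log2 difference between NASH+ISO and NASH for each of the 42 genes, grouped by subfamily and sorted within it, with 95% confidence intervals; orange points were higher in NASH+ISO, purple points lower, and grey points did not pass at an adjusted p of 0.05. Cyp1a and most Cyp2c genes lie below zero, 5 of 8 Cyp2d genes and Cyp2f2 above it, and Cyp2r1 is lowest at -1.14.

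The receptors that drive these families were themselves lower in NASH. Of 18 regulators of P450 genes, 9 fell, 5 rose and 4 did not pass in NASH, with a median of -0.34, against 29.2% of all genes lower and 25.3% higher. Ahr, the receptor of the CYP1 genes, read 7.86 and 7.87 in CTL liver, 7.13 and 7.16 in NASH liver and 6.70 and 6.70 in NASH+ISO liver, in the same order of groups as Cyp1a2 (-0.72 in NASH, adjusted p = 5.88e-06; -0.45 between NASH+ISO and NASH, adjusted p = 0.000154). Nr1i3, which encodes CAR, had that order too: NASH differed from CTL by -0.68 (adjusted p = 7.9e-06) and NASH+ISO from NASH by -0.28 (adjusted p = 0.00131). Nr1i2, which encodes PXR, fell to 5.81 and 5.75 in NASH from 6.95 and 6.97 in CTL and read 6.48 and 6.47 in NASH+ISO (-1.18, adjusted p = 9.27e-07; 0.70 between NASH+ISO and NASH, adjusted p = 3.73e-05). Hnf4a dipped in NASH in the way of Cyp2d9, Cyp2d10, Cyp2d13 and Cyp2d22, and not of the other Cyp2d genes. It read 10.77 and 10.77 on the CTL arrays, 9.54 and 9.58 on the NASH arrays and 9.91 and 9.94 on the NASH+ISO arrays (-1.21, adjusted p = 6.73e-07; 0.36, adjusted p = 0.000458). Nr0b2, the repressor SHP, fell in NASH (-0.50, adjusted p = 6.7e-05) and was higher in NASH+ISO than in NASH by 1.41 on the log2 scale (adjusted p = 3.94e-06). Whether any of these moved the P450 genes was not tested. Of 4 measured AHR target genes outside the CYP1 family, 2 rose, 1 fell and 1 did not pass in NASH. Nqo1 rose (0.52, adjusted p = 0.000325) and so did Tiparp (0.29, adjusted p = 0.00852), while Aldh3a1 and Ahrr were under the background guide.

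**Figure D5:**
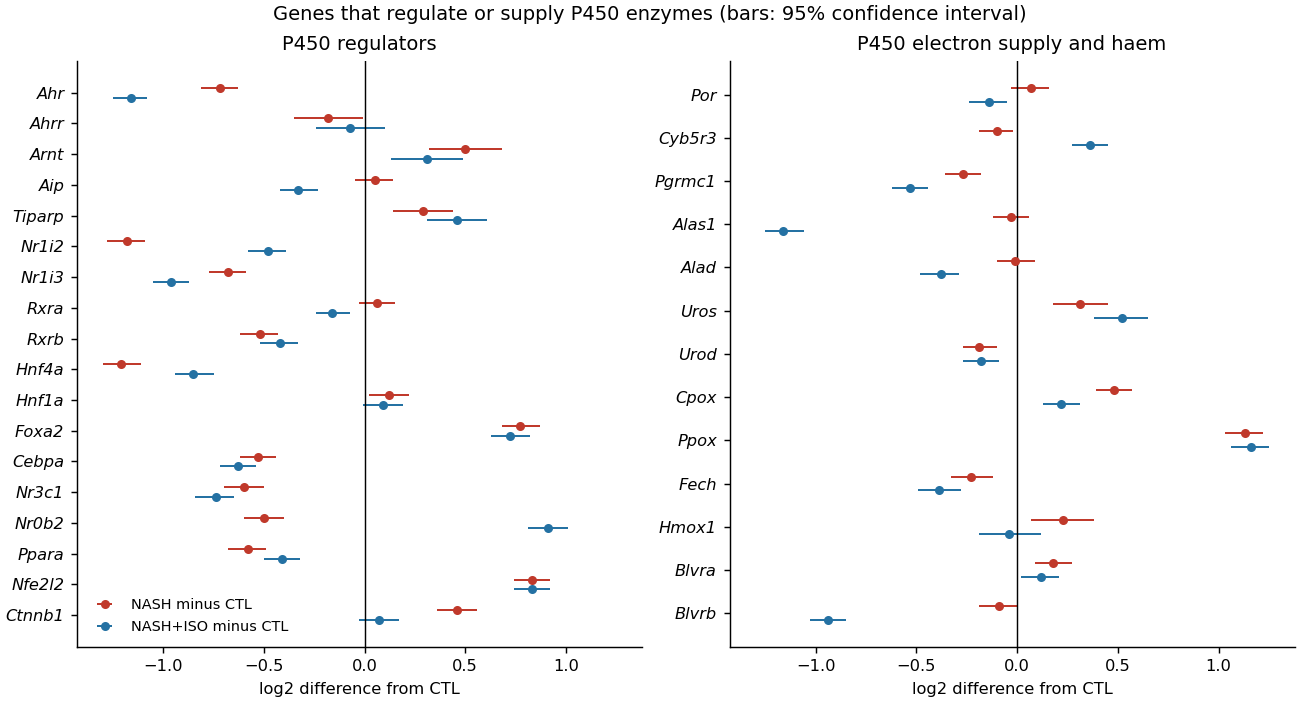
Log2 difference from CTL, with 95% confidence intervals, of 18 regulators of P450 genes (left) and 13 genes of electron supply and haem (right); red is NASH, blue NASH+ISO (n = 2 arrays a group). Ahr and Nr1i3 lie further from CTL in NASH+ISO, Nr1i2 and Hnf4a further in NASH, and Alas1 and Blvrb are displaced in NASH+ISO and not in NASH.

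Every P450 needs haem and electrons, and of 13 measured genes that supply them 5 rose, 3 fell and 5 did not pass in NASH, with a median of -0.01, against 25.3% of all genes higher and 29.2% lower. Por, the common electron donor, differed by 0.07 in NASH (adjusted p = 0.202) and by -0.14 in NASH+ISO (adjusted p = 0.0214). Alas1, the rate-limiting enzyme of haem synthesis, read 9.27 and 9.31 in CTL liver, 9.28 and 9.24 in NASH liver and 8.13 and 8.14 in NASH+ISO liver, which is -0.03 in NASH (adjusted p = 0.56) and -1.16 in NASH+ISO (SE 0.0389, adjusted p = 1.3e-06). Blvrb, a biliverdin reductase, had the same course, at -0.09 in NASH (adjusted p = 0.0911) and -0.94 in NASH+ISO (adjusted p = 3.5e-06). Ppox, a later step of haem synthesis, rose in NASH (1.13, adjusted p = 1.05e-06). Between NASH+ISO and NASH, 8 of the 13 genes were lower and 2 higher, with a median of -0.21, against 20.5% and 21.1% of all genes.

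Summed signals of markers of other liver cells differed between the groups. A sum follows its brightest genes, and the genes within a list did not all move alike. On the log2 scale, the summed signal of 8 stellate and fibroblast markers was 9.33 to 9.36 on the CTL arrays, 9.89 to 9.92 on the NASH arrays and 9.16 to 9.18 on the NASH+ISO arrays. That of 7 macrophage markers was 9.44 to 9.46, 9.86 to 9.87 and 9.28 to 9.29, and that of 6 cholangiocyte markers was 7.60 to 7.61, 8.52 to 8.54 and 8.84. For 6 endothelial markers it was 8.11 to 8.14, 8.10 to 8.13 and 8.64, and for 6 lymphocyte markers 6.90 to 6.94, 6.86 to 6.87 and 6.98 to 7.05. Their part in the P450 differences was not tested. Among the 8 stellate and fibroblast markers, 5 rose and 2 fell in NASH, where 25.3% and 29.2% of all genes did so. In NASH+ISO, 2 passed above CTL, 2 passed below it and 4 had no call, against 24.1% and 23.9% of all genes. Acta2 stayed above CTL, by 1.43 in NASH (adjusted p = 5.51e-07) and 1.29 in NASH+ISO (adjusted p = 1.37e-06). Dcn, the brightest of them in CTL, differed from CTL by -0.20 (adjusted p = 0.00819) and -0.83 (adjusted p = 9.03e-06). Of the 6 cholangiocyte markers 4, and of the 6 lymphocyte markers 3, were above the background guide. In NASH 2 of the cholangiocyte markers rose, 1 fell and 3 did not pass, against 25.3% of all genes higher and 29.2% lower. The median difference of that list was -0.01, and Spp1, its brightest gene, rose by 1.14 on the log2 scale (adjusted p = 7.53e-07). Of the 10 hepatocyte markers, which share Hnf4a with the regulators, 2 fell, 2 rose and 6 did not pass in NASH. The shares of all genes were 29.2% lower and 25.3% higher. The median difference of the markers was 0.03, against -0.21 for the 42 P450 genes. The brightest markers lay near the top of the scale, and saturation was not tested.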

How the data were processed

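The log2 values that the authors deposited, 1 for each array and probe set, come from RMA as run in Affymetrix Expression Console, and the processing notes also name Transcriptome Analysis Console. Workbooks of the 2 comparisons with CTL hold a second set of log2 values, lower on average (mean difference -0.0994), which served here as an alternative, and the authors' fold changes and p-values, which were not used. Which step separates both sets was not stated in the sources used here. Gene names come from the workbook, and RefSeq (GRCm38.p6) matched 41 of the 42 genes by symbol and 1 by an older symbol. RefSeq has no promoter entry here for Cyp2c54.

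Of 45141 entries, 104 control probe sets were left out. The comparisons used limma (3.58.1, R 4.3.3) with 1 mean per group over all 6 arrays and moderated spread (3 residual and 4.01 prior degrees of freedom, prior SD 0.0487), Benjamini-Hochberg adjustment over 45037 probe sets and a threshold of 0.05, tested on simulated data. Counts, figures and promoter alignments used Python (3.11.15) and its packages pandas (2.3.3), numpy (2.4.6), matplotlib (3.10.9) and biopython (1.88). Values of every array are printed for genes with a change of at least 2-fold in any comparison and for the brightest gene of each subfamily; list genes named are up to 4 per list with the largest change, with Ahr, Nr1i2, Nr1i3 and Por. From the list of electron supply and haem, 1 gene is not reported here. The members and lists were chosen with earlier results of these data known. Alternatives were only the 4 arrays compared, no moderation, a prior that follows the level, quantile normalization, median centring, a filter on probe sets dimmer than the median, 1 probe set per gene, averaged probe sets of each gene, the workbook values, fold thresholds of 1.5 and 3, a replicate block and leaving out each array. The number of arrays limits the precision. RNA input is 100 ng per array in the design text and 9.4 ug in the labels.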

Additional observations from a re-analysis of the deposited data

Results flagged for a closer look

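Probe sets that name a member together with another gene were outside every comparison above, and 2 of them differed at least 2-fold from CTL. The probe set naming Cyp2c37 and a second locus differed from CTL by -2.97 in NASH (adjusted p = 2.89e-08) and by -3.25 in NASH+ISO (adjusted p = 3.4e-08) on the log2 scale. The probe set naming Cyp2a4 and Cyp2a5, steroid and coumarin hydroxylases, read 9.61 and 9.62 on the CTL arrays, 8.37 and 8.40 on the NASH arrays and 7.70 and 7.64 on the NASH+ISO arrays. Its log2 difference from CTL was -1.23 in NASH (adjusted p = 7.39e-07) and -1.95 in NASH+ISO (adjusted p = 1.78e-07), and NASH+ISO was lower than NASH (-0.72, adjusted p = 3.23e-05).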

How the results depend on the processing

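Counts at 2-fold moved with the fold threshold. At 1.5-fold, 4 member probe sets were higher and 17 lower in NASH against CTL, 3 and 16 in NASH+ISO against CTL, and 2 and 4 in NASH+ISO against NASH. At 3-fold these were 1 and 5, 0 and 5, and 0 and 0. The count of 1 higher at 2-fold in NASH+ISO against CTL became 2 with median centring, with the workbook values and without CTL array 1 (range 1 to 2 over arrays left out), where a Cyp2b10 probe set that lies at the threshold crosses it. Averaging probe sets turned Cyp2j6 to 0.11 in NASH (adjusted p = 0.0383) and 0.03 in NASH+ISO (adjusted p = 0.59), since its probe sets disagree. Of 1992 values of single genes under alternatives, 1884 kept their side of the threshold, 74 lost and 32 gained a call, and the 2 of Cyp2j6 changed sign from a called value; values near zero that passed in neither setting could also change sign.

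Arrays of like number did not deviate together (correlations 0.0465, 0.047 and 0.0916), so they share only a number. With the replicate block, 28 probe sets were lower and 11 higher in NASH against CTL, as without it, and 29 were lower in NASH+ISO against CTL; the call for Cyp1b1 there was lost (-0.15, adjusted p = 0.052).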
